A study of Homo sapiens with 18 samples.

Results

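NPIPB3, NPIPB4, NPIPB5, NPIPB11 and NPIPB13 are 5 near-identical members of the NPIP gene family on chromosome 16. They are 5 of the 27105 genes to which the deposited transcripts could be summed, and they were chosen by measured levels. As far as is known, these were levels of the USP13 experiment, where each copy exceeded its control under sh50 and under sh52. The values of the USP13 experiment are therefore given below as a description, with no test, and the ZHX2 experiment, whose libraries and controls are other samples, was tested. Whether ZHX2 values also entered the choice is not known, so that the ZHX2 p-values may not be independent of it. Levels are given for each copy and for the sum of the 5 copies, because reads that match several copies were divided between them by the quantification.

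The cells were 786-O, an established line from a clear-cell carcinoma of the kidney in which VHL is not functional. In the USP13 experiment, cells carried the hairpin sh50 or sh52 against USP13, a deubiquitinating enzyme, or a control hairpin (shCtrl). In the ZHX2 experiment, they carried sh43 or sh45, assigned by the sample titles to ZHX2, a zinc-finger and homeobox transcription factor, or a separate shCtrl. Each of the 6 groups held 3 libraries, 18 in all, and no further treatment, time or passage is given for any group. The treatment protocol in the labels lists hairpins 43 and 45 under USP13 instead, and describes inducible hairpin vectors for USP13 without saying whether they were used here. Whether the replicates were separate cultures is not stated, and the p-values cover only the spread among these libraries, which may be technical.

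NPIP stands for nuclear pore complex interacting protein. The family arose by repeated segmental duplication of a block of chromosome 16 in the primate lineage, and its block is known as a core duplicon, a sequence around which other duplicated segments accumulated. The genes are widely transcribed, their coding sequences carry signs of positive selection in primates, and the work that each protein does in the cell is poorly known, so that no separate role can be set beside each copy. Because the copies are so alike, a short read often matches several of them.

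The likeness of the copies is shown first, since it limits how far a value can be assigned to 1 gene. GENCODE 29 (GRCh38) holds a protein-coding transcript of 1216 bases for each of the 5 copies, which allowed a comparison position by position, counted from 1 at the 5′ end of the transcript. At 1203 of the 1216 positions all copies had the same base, and they differed at 13. A stretch of 180 bases, positions 361 to 540, is printed for 4 copies because it holds 4 of the 13 positions, and these separate NPIPB4, NPIPB11 and NPIPB13 from NPIPB3. The letters at the positions that differ are in capitals. The stretch is coding throughout and is spliced from 2 of the 6 exons.
NPIPB3: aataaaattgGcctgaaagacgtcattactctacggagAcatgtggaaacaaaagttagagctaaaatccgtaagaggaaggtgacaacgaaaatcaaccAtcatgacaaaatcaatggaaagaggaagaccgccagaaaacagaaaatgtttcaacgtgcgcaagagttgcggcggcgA
NPIPB4: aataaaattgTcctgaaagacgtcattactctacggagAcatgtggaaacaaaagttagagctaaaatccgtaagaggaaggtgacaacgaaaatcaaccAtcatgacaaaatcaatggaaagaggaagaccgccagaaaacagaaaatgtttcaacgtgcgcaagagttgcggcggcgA
NPIPB11: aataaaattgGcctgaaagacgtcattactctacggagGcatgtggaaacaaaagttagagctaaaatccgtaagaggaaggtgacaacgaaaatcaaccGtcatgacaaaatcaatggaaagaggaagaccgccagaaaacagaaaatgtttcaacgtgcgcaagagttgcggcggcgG
NPIPB13: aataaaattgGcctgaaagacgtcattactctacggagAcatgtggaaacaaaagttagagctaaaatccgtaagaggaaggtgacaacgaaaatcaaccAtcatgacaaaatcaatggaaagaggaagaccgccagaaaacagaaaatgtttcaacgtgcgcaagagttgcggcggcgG
It lies at chr16:21406823-21411076 on the minus strand for NPIPB3, chr16:21839274-21843528 on the minus strand for NPIPB4, chr16:29385819-29390083 on the minus strand for NPIPB11 and chr16:30227333-30231582 on the minus strand for NPIPB13, introns included. NPIPB5, at chr16:22527831-22532096 on the plus strand, has the same letters as NPIPB3 here and over the whole 1216 bases, with 0 differences.

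Against NPIPB3, the NPIPB4 transcript differed by G207A and G371T, and the NPIPB13 transcript by A540G and A1147G, where the NPIPB3 base stands first. NPIPB11 was the least alike, with 10 differences from NPIPB3, of which A399G, A461G and A540G fall in the printed stretch. NPIPB4 and NPIPB11 differed from each other at 12 positions, which left 99.01% of bases identical, the lowest share of the 10 pairs.

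**Figure D1:**
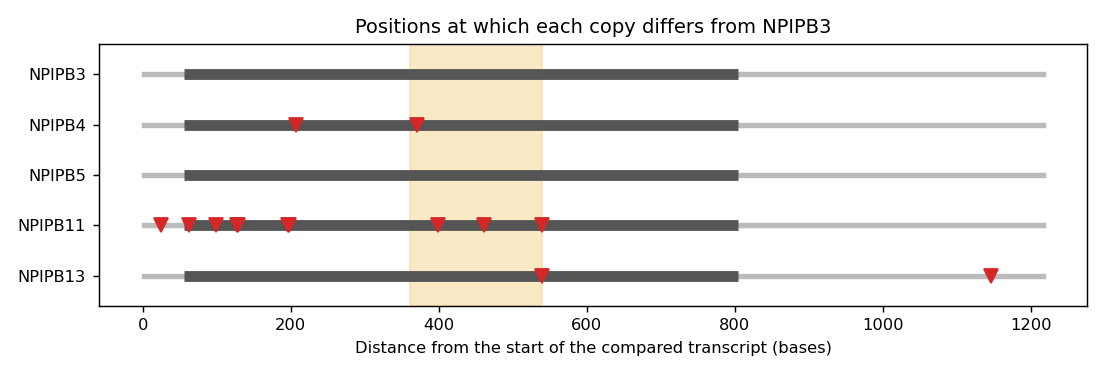
Positions along the compared 1216-base transcripts (bases from the transcript start) at which each copy differs from NPIPB3, as red triangles, with coding sequence as the thick bar and the printed 180-base stretch shaded. NPIPB5 shows no difference, NPIPB4 and NPIPB13 show 2 each, and NPIPB11 shows 10.

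The transcripts behind the deposited values were longer than these forms. Each of the 5 copies was listed with 1 RefSeq transcript of 3497 to 4049 bases, whereas the 10 other NPIP genes in the files were listed with transcripts of 1088 to 1491 bases. GENCODE 29 also holds NPIP genes to which no listed transcript was assigned, such as NPIPB2, NPIPB7 and NPIPB12. Where the quantification placed reads from those genes is not known, so that the levels and sums may hold some of them. In the GENCODE transcript tied to the listed RefSeq transcript, 80.3% of all stretches of 150 bases, the read length, also occurred in a transcript of another NPIP gene for NPIPB4, 73.1% for NPIPB5 and 84.2% for NPIPB13. The share was 23.7% for NPIPB11, the lowest of the 5 transcripts compared. For NPIPB3 it was 96.7%, but the tied GENCODE transcript had only 1254 bases where the listed one had 3617. The share for the listed form of NPIPB3 is not known here. In stretches of 31 bases the share for NPIPB11 was 85.8%, again the lowest of the 5 transcripts. Most short stretches of NPIPB11 were therefore shared too. Its values also carry a doubt about shared reads, although fewer of its stretches of read length were shared. By position on GRCh38, NPIPB3 spans 21402129 to 21425378, NPIPB4 21834582 to 21857756, NPIPB5 22503599 to 22536535, NPIPB11 29381167 to 29406711 and NPIPB13 30222897 to 30248479 of chromosome 16, in the RefSeq gene table. All but NPIPB5 lie on the minus strand.

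Total estimated counts per library ran from 11192561 to 16511290. USP13 mRNA measured 30.8 to 35.8 CPM (counts scaled to a common library size by the TMM method, here over all 18 libraries) in its control, 16.3 to 20.0 under sh50 and 14.5 to 17.6 under sh52. ZHX2 mRNA measured 346 to 351 CPM in its control, 40.1 to 44.9 under sh43 and 82.2 to 93.3 under sh45. Both targets were thus lower under the hairpins whose titles name them. Smaller log2 changes were seen across the experiments. USP13 fell under sh43 (-0.23; edgeR, adjusted p = 0.0156) but did not pass under sh45 (0.17; edgeR, adjusted p = 0.0851). ZHX2 fell under sh50 (-0.20; edgeR, adjusted p = 0.00859) and sh52 (-0.17; edgeR, adjusted p = 0.0467). The controls differed in ZHX2 too, at a mean of 150 CPM in the USP13 control and 349 CPM in the ZHX2 control. Of 10 kidney and carcinoma line markers, 9 had a mean above 1 CPM over all 18 libraries, CA9 being the exception. Summed levels of this list ran from 4390 to 5870 CPM. Of 15 blood cell markers, those of leukocytes and the red-cell gene HBB, only CD68 had such a mean. CD3D, CD3E, FCGR3A and HBB were at 0 in all libraries, and the list summed to 19.4 to 64.8 CPM. Of 8 endothelial markers, ENG and ESAM had such a mean, with a list sum of 1.82 to 5.99 CPM. Means within single groups were not compared with 1 CPM. USP13 sh52 replicate 1 held a count for 15496 genes, the fewest of the 18 libraries. Mitochondrial rRNA took 2.54% to 2.70% of counts in the USP13 control, 4.11% to 4.43% under sh50 and 3.54% to 3.80% under sh52. It took 1.18% to 1.32% in the ZHX2 control, 1.51% to 1.57% under sh43 and 2.83% to 3.35% under sh45.

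The summed copies differed more between the control cells of the 2 experiments than between any hairpin and its control, where the ratio of means was at most 1.86. On the scale of all 18 libraries, the 5 copies together measured 66.6 ± 6.33 CPM (SD, n = 3) in the USP13 control and 7.73 ± 1.4 CPM in the ZHX2 control, an 8.61-fold gap. NPIPB3 had the widest gap, at 22.4 ± 1.3 CPM against 0.735 ± 0.0919 CPM, or 30.5-fold. NPIPB5 followed, at 21.8 ± 3.56 CPM against 1.11 ± 0.192 CPM, or 19.7-fold. These copies were the ones with identical letters in the 1216-base form.

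The gap was smaller for the others. NPIPB11 measured 2.51 ± 0.368 CPM in the USP13 control and 0.35 ± 0.174 CPM in the ZHX2 control (7.19-fold). NPIPB4 measured 15.1 ± 1.9 CPM and 3.69 ± 1.08 CPM (4.1-fold). NPIPB13 measured 4.78 ± 0.285 CPM and 1.85 ± 0.38 CPM (2.58-fold). The control groups did not overlap for any of the 5 copies. The same held for NPIPA1, NPIPA5 and NPIPB15 but not for NPIPB6. The share of all genes without overlap was not counted, so that the lack of overlap does not set the copies apart. Over the 14211 genes tested across all libraries, the median log2 difference between the controls was -0.01, and the median size of the difference, regardless of sign, was 0.32. Of these genes, 1.62% were lower in the ZHX2 control by more than 4 times. NPIPB3, at a log2 difference of -4.91 (SE 0.20), had 17 genes with a larger fall, NPIPB5, at -4.29 (SE 0.19), had 27, and the sum, at -3.10 (SE 0.13), had 77. The 2 experiments were separate sets of libraries, and whatever set them apart cannot be told apart from the cells themselves. The mitochondrial rRNA share was also higher in the USP13 control than in the ZHX2 control, and its part was not tested. In RNA from a whole culture, fewer expressing cells and less RNA per cell cannot be told apart.

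Among the other NPIP genes, NPIPA5 measured 8.83 ± 0.848 CPM in the USP13 control and 6.61 ± 0.592 CPM in the ZHX2 control, and NPIPA1 measured 4.55 ± 0.643 and 2.82 ± 0.591 CPM. NPIPB15, which lies apart from the others on the long arm of chromosome 16, measured 8.29 ± 0.826 and 2.13 ± 0.554 CPM, a 3.89-fold gap that was close to that of NPIPB4.

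**Figure D2:**
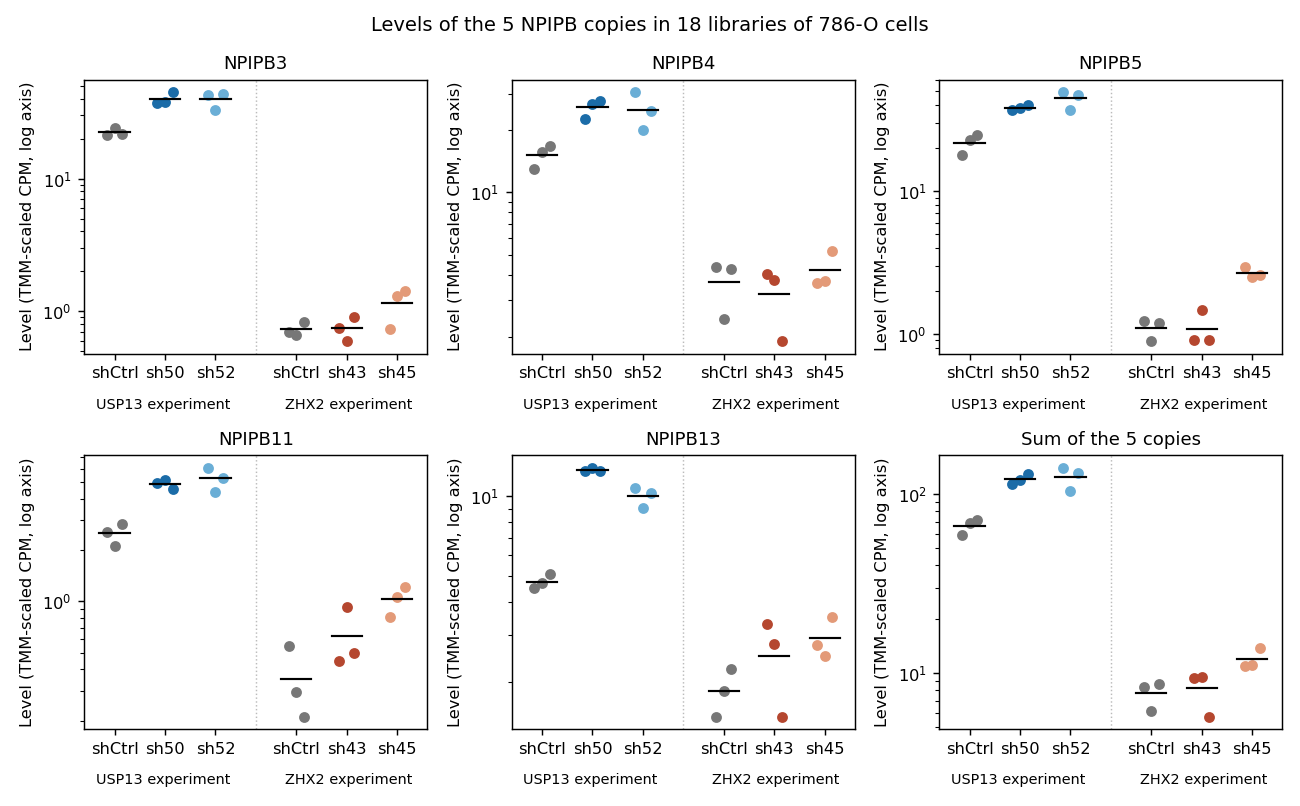
Level of each copy and of the sum of the 5 copies (TMM-scaled CPM over all 18 libraries, log axis) in the 3 libraries (points) of each of the 6 groups, with the group mean as a bar. NPIPB3 lies between 21.4 and 23.9 CPM in the USP13 control and between 0.665 and 0.839 CPM in the ZHX2 control, and every copy is higher under sh50 and sh52 than in the control beside them.

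Compared per length, as TPM, an abundance scaled by transcript length, the order of the copies was not the same in the 2 experiments. In the USP13 control the order was NPIPB3 (11.2 ± 0.7 TPM), NPIPB5 (10.3 ± 1.44), NPIPB4 (6.67 ± 0.69), NPIPB13 (2.2 ± 0.0735) and NPIPB11 (1.3 ± 0.175). Only NPIPB3 and NPIPB5 overlapped as neighbours in that order. In the ZHX2 control the order was NPIPB4 (1.63 ± 0.509 TPM), NPIPB13 (0.852 ± 0.183), NPIPB5 (0.522 ± 0.101), NPIPB3 (0.367 ± 0.0536) and NPIPB11 (0.181 ± 0.091). There NPIPB4 was above NPIPB13 in each library although their ranges met at 1.05 TPM, and the ranges of NPIPB5 and NPIPB3 overlapped.

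As shares of the summed TPM, NPIPB3 made up 35.5 ± 2.88% and NPIPB5 32.3 ± 2.43% in the USP13 control (SD, n = 3). In the ZHX2 control these shares were 10.4 ± 1.29% and 14.7 ± 0.675%, and NPIPB4 made up 45.2 ± 6.36% and NPIPB13 24.5 ± 6.21%. NPIPB4 was the most abundant copy per length in all 9 libraries of the ZHX2 experiment, and in none of the USP13 experiment. NPIPB3 and NPIPB5 were the most abundant copies per length under sh50 (34.4% and 31.3%) and under sh52 (33.4% and 35.5%). The NPIPB13 share was 6.97 ± 0.366% in control, 10.1 ± 0.693% under sh50 and 7.84 ± 0.509% under sh52. Under sh45 the NPIPB5 share was 23.1 ± 4.44%, against 13.8 ± 3.5% under sh43, and that of NPIPB4 was 33.1 ± 2.19%. These shares rest on how the quantification divided reads that the copies have in common.

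**Figure D3:**
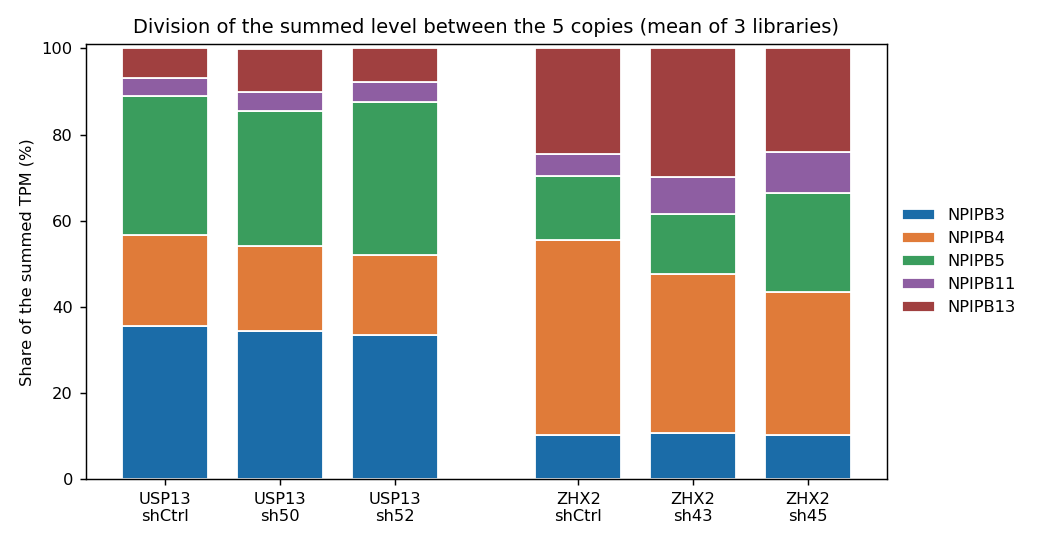
Share of the summed TPM of the 5 copies (%, bars from 0, mean of 3 libraries) held by each copy in the 6 groups. NPIPB3 and NPIPB5 hold 35.5% and 32.3% in the USP13 control, and NPIPB4 holds 45.2% in the ZHX2 control.

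In the USP13 experiment the summed copies stood at 61.3, 71.3 and 73.7 CPM in control (here and below scaled within the experiment), at 117, 123 and 133 CPM with sh50 and at 143, 107 and 135 CPM with sh52. Every hairpin library lay above every control library. The log2 difference from control was 0.86 (SE 0.09) under sh50 and 0.90 (SE 0.09) under sh52, with 0.04 (SE 0.08) between the hairpins. All 5 copies shared this pattern with no overlap between a hairpin and its control, a count that the choice of the members fixed. Over the 13719 genes tested, edgeR called 10.2% higher and 11.3% lower under sh50, 5.45% higher and 6.56% lower under sh52, and 3.25% higher and 4.15% lower under both.

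NPIPB3 measured 22.1, 24.6 and 22.6 CPM in control, 38.2, 38.6 and 45.8 CPM with sh50 and 43.9, 34.0 and 44.2 CPM with sh52. Its log2 difference was 0.82 (SE 0.10) under sh50 and 0.82 (SE 0.10) under sh52, with the lowest sh52 library still above the highest control. NPIPB5 measured 18.5, 23.4 and 25.7 CPM in control, 37.7, 38.8 and 41.4 CPM with sh50 and 50.6, 38.2 and 48.7 CPM with sh52. Its log2 difference was 0.81 (SE 0.11) under sh50 and 1.03 (SE 0.11) under sh52. The values of the hairpins overlapped, since the sh52 library at 38.2 CPM lay inside the sh50 range.

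NPIPB4 measured 13.4, 16.2 and 17.2 CPM in control, 23.4, 27.5 and 28.5 CPM with sh50 and 31.4, 20.6 and 25.6 CPM with sh52. Of the 5 copies it had the smallest log2 differences, 0.77 (SE 0.13) under sh50 and 0.73 (SE 0.13) under sh52. Its lowest hairpin library, at 20.6 CPM, was above its highest control library. NPIPB11, with 34 to 37 counts per control library, measured 2.65, 2.19 and 2.95 CPM in control, 5.1, 5.31 and 4.69 CPM with sh50 and 6.22, 4.52 and 5.46 CPM with sh52. Its log2 difference was 0.96 (SE 0.23) under sh50 and 1.07 (SE 0.23) under sh52. The libraries of both hairpins lay above the control libraries and overlapped each other.

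NPIPB13 measured 4.68, 4.89 and 5.26 CPM in control, 12.9, 13.1 and 12.8 CPM with sh50 and 11.1, 9.29 and 10.6 CPM with sh52. It had the largest log2 difference under sh50, 1.39 (SE 0.15), and 1.06 (SE 0.15) under sh52. It was also the only copy whose sh50 and sh52 libraries did not overlap, with a log2 difference of -0.32 (SE 0.14) for sh52 against sh50. The share of mitochondrial rRNA was also higher in each hairpin library than in control, as given above, and its part in these values was not tested.

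**Figure D4:**
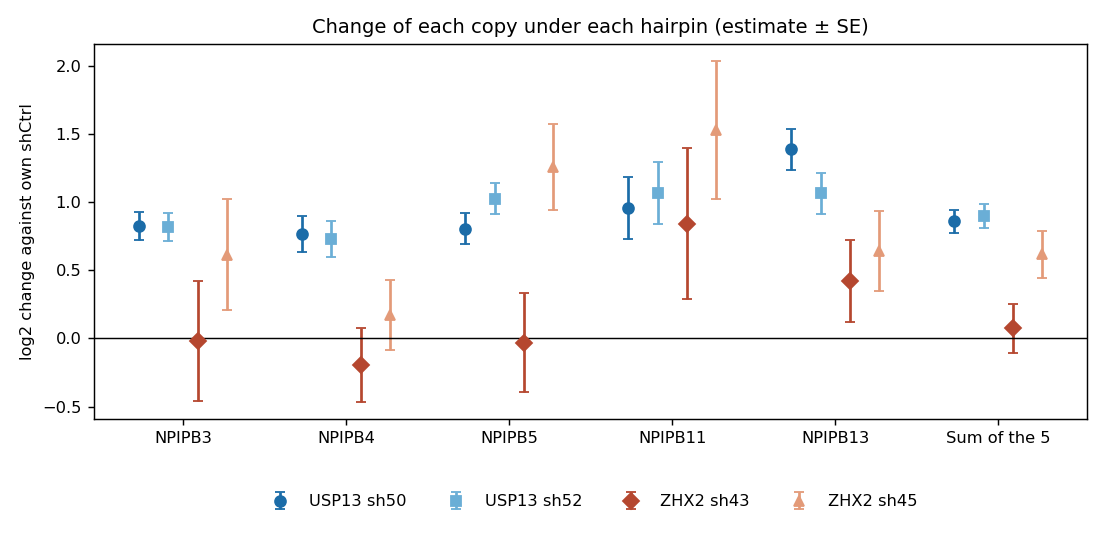
Log2 change of each copy and of the sum of the 5 copies against the control of the same experiment (edgeR estimate, bars ± SE) under the 4 hairpins. The USP13 hairpins give 0.73 to 1.39 for single copies, sh43 gives values on both sides of 0, and sh45 gives values from 0.17 for NPIPB4 to 1.53 for NPIPB11.

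In the ZHX2 experiment the question was whether the copies changed when another gene was lowered in the same line. The summed copies stood at 8.19, 6.02 and 8.58 CPM in control, 9.08, 9.2 and 5.48 CPM with sh43 and 10.6, 10.8 and 13.5 CPM with sh45. All sh45 libraries lay above all others, and sh43 replicate 3 lay below the control libraries and the other sh43 libraries above them. The sum rose under sh45, with a log2 change of 0.62 (SE 0.17; edgeR, adjusted p = 0.00363). Under sh43 the log2 change was 0.07 (SE 0.18; 95% interval -0.28 to 0.42; edgeR, adjusted p = 0.733). The sum was higher under sh45 than under sh43 by 0.54 (SE 0.17; edgeR, adjusted p = 0.00641). Neither sh45 call passed with limma on log2(TPM + 0.5), which gave 0.38 against control (adjusted p = 0.0974) and 0.41 against sh43 (adjusted p = 0.0733), and the difference between the hairpins did not pass without sh43 replicate 3 (0.35, edgeR, adjusted p = 0.0618) or sh45 replicate 3 (0.41, edgeR, adjusted p = 0.0603).

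Of the 13607 genes tested, 25.3% were higher and 27.3% lower under sh45, and 33.5% were higher and 35.2% lower under sh43. NPIPB5 rose under sh45. NPIPB11 also stood below the threshold there, but it entered the test with no control library above the filter on low counts, so that its difference is described below and not counted as a rise. Under sh43, 0 of the 5 passed by edgeR or DESeq2, and 0 had an unadjusted p under 0.05. NPIPB5 was the only copy that passed as higher under sh45 than under sh43, where 34.2% of genes were higher and 32.7% lower. NPIPB3 had a log2 difference of 0.63 (SE 0.41) there, and whether the copies differed from each other was not tested. With so many genes called, these calls do not set the copies apart. The mitochondrial rRNA share was also highest under sh45, and its part was not tested.

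NPIPB5 measured 1.22, 0.87 and 1.17 CPM in control, 0.865, 1.41 and 0.874 CPM with sh43 and 2.88, 2.44 and 2.49 CPM with sh45. The sh45 libraries, with 31 to 44 counts, did not overlap the control libraries, with 12 to 17 counts, or the sh43 libraries, with 11 to 22. It rose under sh45, with a log2 change of 1.26 (SE 0.31; edgeR, adjusted p = 0.00149) and differed from sh43 by 1.29 (SE 0.31; edgeR, adjusted p = 0.000802). Under sh43 its change was -0.03 (SE 0.36; 95% interval -0.74 to 0.68), which is wide at this depth.

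NPIPB11 was counted 7, 4 and 3 times in the control libraries, 6, 14 and 6 times under sh43, and 12, 13 and 18 times under sh45. These were 0.536, 0.29 and 0.206 CPM in control, 0.433, 0.894 and 0.477 CPM with sh43 and 0.785, 1.02 and 1.18 CPM with sh45. No sh45 library overlapped the control, and the sh43 libraries overlapped both. It passed the filter on low counts through 4 of 9 libraries, the 3 of sh45 and 1 of sh43, so that it had to be higher outside the control to be tested, and the log2 difference of 1.53 (SE 0.51) between sh45 and control is a description. With no filter on low counts it was 1.54 (SE 0.62), also as a description. With the filter, the difference no longer stood below the threshold without sh45 replicate 3 (1.39) or without control replicate 3 (1.26).

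NPIPB13 measured 1.45, 1.81 and 2.2 CPM in control, 3.17, 2.68 and 1.43 CPM with sh43 and 2.68, 2.44 and 3.4 CPM with sh45. The sh45 libraries lay above the control libraries, and sh43 replicate 3 lay below them while the other sh43 libraries lay above. The log2 change was 0.64 (SE 0.29; edgeR, adjusted p = 0.0685) under sh45 and 0.42 (SE 0.30; edgeR, adjusted p = 0.217) under sh43. Without sh43 replicate 3 both passed, at 0.64 and 0.67, each with an adjusted p of 0.0495 by edgeR.

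NPIPB3 was counted 9, 9 and 12 times in control, 10, 9 and 11 times under sh43, and 11, 16 and 21 times under sh45. All groups overlapped, and the log2 change was 0.61 (SE 0.41; 95% interval -0.18 to 1.41) under sh45 and -0.02 (SE 0.44; 95% interval -0.88 to 0.85) under sh43. It passed the filter through 5 of 9 libraries, 1 of them a control. NPIPB4 measured 4.29, 2.39 and 4.19 CPM in control, 3.89, 3.64 and 1.83 CPM with sh43 and 3.53, 3.63 and 5.04 CPM with sh45. Its log2 change was 0.17 (SE 0.26; 95% interval -0.33 to 0.68) under sh45 and -0.20 (SE 0.27; 95% interval -0.72 to 0.33) under sh43, and the groups overlapped throughout. The values that these copies had under the USP13 hairpins lay inside the interval of NPIPB3 under both ZHX2 hairpins, and outside that of NPIPB4.

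Of the 10 other NPIP genes, NPIPA7, NPIPA8 and NPIPB8 were given no count in any library, and NPIPA2, NPIPA3 and NPIPB9 no more than 12 counts in a group of 3 libraries. NPIPB6 was tested in the USP13 experiment only. NPIPA5, the most abundant NPIP gene per length in the USP13 control at 18.5 ± 1.56 TPM (SD, n = 3), rose with sh50 by 0.54 (SE 0.16; edgeR, adjusted p = 0.0128) and with sh52 by 0.93 (SE 0.15; edgeR, adjusted p = 0.00015). NPIPA1 rose by 0.54 and 0.81 (edgeR, adjusted p = 0.0389 and 0.00384). NPIPB15 had log2 changes of 0.22 (edgeR, adjusted p = 0.33) and 0.39 (edgeR, adjusted p = 0.085), and NPIPB6 of 0.71 and 0.68 with an SE of 0.48 each. In all, 2 of the 4 other NPIP genes tested passed as higher under both USP13 hairpins, as 3.25% of all genes did, with list medians of 0.54 and 0.75. NPIPA1 and NPIPA5 are relatives of the 5 copies in sequence, so that they are not independent of them.

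In the ZHX2 experiment NPIPB15 rose under sh45 by 0.89 (SE 0.25; edgeR, adjusted p = 0.0037) and NPIPA5 by 0.45 (SE 0.16; edgeR, adjusted p = 0.0246). NPIPA1 had a log2 change of 0.54 (edgeR, adjusted p = 0.0626) under sh45 and of -0.58 (edgeR, adjusted p = 0.0635) under sh43. All 3 were higher under sh45 than under sh43, NPIPA1 with a ratio of means of 2.22, and NPIPB15 and NPIPA5 with log2 differences of 1.00 and 0.71 (edgeR, adjusted p between 0.000456 and 0.00103). Of all genes, 34.2% were higher and 32.7% lower under sh45 than under sh43. Against control, 25.3% were higher and 27.3% lower under sh45. The sum over all NPIP genes of the files rose under sh45 by 0.58 (SE 0.11; edgeR, adjusted p = 0.000115). Under sh43 the log2 change of that sum was -0.15 (SE 0.12; edgeR, adjusted p = 0.29), and neither it nor the sum of the 5 copies passed there.

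Genes from the short arm of chromosome 16 were set beside the copies. The list of other duplicated families also reached the long arm, as with PDXDC2P. Of 20 tested genes of these families, 0 rose and 4 fell under both USP13 hairpins by edgeR. At an unadjusted p under 0.05, 1 was higher under both. Of all genes, 3.25% rose and 4.15% fell under both. The 4 that fell were SULT1A1, a cytosolic sulfotransferase (-1.10 and -0.89; edgeR, adjusted p = 0.0018 and 0.016), and NOMO3, NOMO2 and NOMO1, near-identical genes for a protein of the endoplasmic reticulum membrane (-0.52 to -0.23). The list's median log2 change was -0.05 under sh50 and -0.01 under sh52, where the median of all genes was 0.00. Of 26 tested single-copy genes of the region, 8 rose and 2 fell under sh50, and 1 rose and 2 fell under sh52, beside 10.2% and 11.3% of all genes under sh50 and 5.45% and 6.56% under sh52. TUFM, the mitochondrial elongation factor Tu, rose under both (0.25 and 0.17; edgeR, adjusted p = 0.00059 and 0.028). The list medians were 0.09 and -0.01.

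In the ZHX2 experiment, 5 genes of the duplicated families rose and 6 fell under sh43, and 4 rose and 5 fell under sh45, of 20 tested. Beside the shares of all genes, 33.5% higher and 35.2% lower under sh43 and 25.3% higher and 27.3% lower under sh45, these counts do not set the list apart. Under both ZHX2 hairpins, 14.1% of all genes rose and 15.9% fell. SULT1A1 fell under both hairpins (-2.14 and -2.26; edgeR, adjusted p = 1.2e-06 and 1.3e-06), as did ABCC6, a transporter (-2.49 and -1.03), its pseudogene ABCC6P1 and SMG1P3, a partial copy of SMG1 (-1.16 and -1.03). Of the 26 single-copy genes, 10 rose and 9 fell under sh43 and 9 rose and 10 fell under sh45, counts that the same shares of all genes do not set apart either. KIF22, a mitotic kinesin, rose under both (0.73 and 0.62).

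Core duplicon families of other chromosomes, such as NBPF, GOLGA8 and LRRC37A, share the history of repeated duplication with NPIP. Of 62 tested, 4 rose and 2 fell under sh50, and 3 rose and 0 fell under sh52 by edgeR, 1 being lower there at an unadjusted p under 0.05, with list medians of 0.13 and 0.02. Of all genes, 10.2% rose and 11.3% fell under sh50, and 5.45% rose and 6.56% fell under sh52. The 3 that rose under both were GOLGA6L9 (0.78 and 0.66), GOLGA8A (0.82 and 0.34) and GOLGA8B (0.69 and 0.19), all of the golgin family. Of 54 tested in the ZHX2 experiment, 6 rose and 16 fell under sh43 (median -0.21) and 20 rose and 2 fell under sh45 (median 0.21), where the median of all genes was -0.02 and -0.01. Of all genes, 33.5% rose and 35.2% fell under sh43, and 25.3% rose and 27.3% fell under sh45. Under both, 5 rose and 2 fell, where 14.1% of all genes rose and 15.9% fell. Among them NBPF14 (1.01 and 1.09) and NOTCH2NLA (0.31 and 1.08) rose. LRRC37A3 (-2.21 and -1.39) and TBC1D3P1-DHX40P1 (-0.89 and -1.47) fell. These are duplicated genes too, and their values carry the same doubt about shared reads.

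Transcripts known for detained introns or nuclear retention, among them NEAT1, CLK1 and several splicing factors, were set beside the copies as a further list. Of 29 tested, 16 rose and 0 fell under sh50 (median 0.23), and 6 rose and 0 fell under sh52 (median 0.10) by edgeR. At an unadjusted p under 0.05, 0 and 2 were lower. The shares of all genes were 10.2% higher and 11.3% lower under sh50, and 5.45% higher and 6.56% lower under sh52. The splicing-linked cyclin genes CCNL1 (0.25 and 0.39) and CCNL2 (0.40 and 0.17), the splicing regulator TRA2A (0.29 and 0.34) and the RNA-binding protein RBM5 (0.23 and 0.25) rose under both USP13 hairpins. Under sh43, 5 rose and 16 fell (median -0.16), and under sh45, 13 rose and 4 fell (median 0.13), beside 33.5% of all genes higher and 35.2% lower under sh43 and 25.3% higher and 27.3% lower under sh45. The list median was higher under sh45 than under sh43, as the sum of the copies was, and higher under sh50 than under sh52, where the sum differed by 0.04. Its part in the level of the copies was not tested.

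Nuclear pore components were listed for the family's name. Of 31 tested, 5 rose and 3 fell under sh50, and 1 rose and 2 fell under sh52, where all genes gave 10.2% higher and 11.3% lower, and 5.45% higher and 6.56% lower. NUP58 (-0.56 and -0.71; edgeR, adjusted p = 3.3e-05 and 4e-06) and NUP54 (-0.50 and -0.36; edgeR, adjusted p = 0.0012 and 0.03), partners in the central channel of the pore, fell under both, and the membrane nucleoporin POM121C rose (0.31 and 0.24). Under sh43, 25 rose and 2 fell (median 0.41), and under sh45, 6 rose and 2 fell (median 0.07), where all genes gave 33.5% higher and 35.2% lower, and 25.3% higher and 27.3% lower. SEC13 (0.72 and 0.41) and NUP85 (0.63 and 0.30), both of the outer pore scaffold, rose under both ZHX2 hairpins. Of 18 nonsense-mediated decay factors, 3 rose and 0 fell under sh50 by edgeR, 1 being lower at an unadjusted p under 0.05, and 1 rose and 1 fell under sh52, against the same shares of all genes as for the pore. DHX34, a helicase of that pathway, rose under both (0.41 and 0.37). Under sh43, 9 rose and 2 fell, and under sh45, 3 rose and 4 fell, beside 33.5% of all genes higher and 35.2% lower, and 25.3% higher and 27.3% lower. The exon junction proteins MAGOH (1.07 and 0.42) and MAGOHB (0.83 and 0.46) rose under both.

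Genes whose pattern was most like that of the summed copies were ranked by Pearson's r over the 18 libraries, each library's log2(CPM + 0.5) being centred on the control mean of its own experiment. The 10 highest of 13177 genes outside the family had r from 0.869 to 0.898. They were PSMA3-AS1, an antisense RNA whose reads cannot be told apart from those of an overlapping gene without strand information, GABPB2, a subunit of the GA-binding transcription factor, DVL3, a Wnt signal transducer, GTF2IP20, a pseudogene of GTF2I, KNTC1, a kinetochore protein, LINC02604, a long non-coding RNA, DCUN1D2, a factor of cullin neddylation, USP32P2, a pseudogene of USP32, ZNF700, a zinc-finger gene, and MRPS25, a mitochondrial ribosomal protein. LINC02604 had log2 changes of 0.70 and 0.64 under sh50 and sh52, -0.01 under sh43 and 0.73 under sh45. PSMA3-AS1 had 0.68, 0.61, -0.25 and 0.29 under the same hairpins. The libraries share controls, depth and the mitochondrial rRNA shift, so that r is a description only. By the same measure the 5 copies had r of 0.839 to 0.927 with their own sum, NPIPA5 had 0.824, NPIPA1 0.803 and NPIPB15 0.661, and the neighbouring SULT1A1 had -0.28.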

How the data were processed

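Messenger RNA of 18 libraries of 786-O cells was analysed. Per the file headers, the deposited files are Salmon tables with a length, an effective length, a TPM value and an estimated count for each RefSeq transcript. Genome build hg19 and the tools Salmon 0.11.3, STAR 2.5.2b, cutadapt 1.12 and DESeq2 1.14.1 are listed in the submitters' processing notes, with no role or order. The estimated counts that the authors deposited are raw, unscaled and whole numbers (tolerance 1e-06). The authors' deposited TPM are scaled to one total per library and were used for comparisons between copies and in 1 alternative. Effective lengths served only as offsets in an alternative.

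Each file listed 60422 transcripts, of which 59301 were named by the RefSeq gene table, 706 by GENCODE 29, and 415 had no name. The unnamed ones, 0.0799% to 0.1148% of counts, were left out. Estimated counts were rounded and summed to 27105 genes. Replicate pairs differed by a chi-square of 2.332 to 6.679 per degree of freedom, and no pair was identical. Genes were filtered with filterByExpr (minimum count 10), which left 13719 genes (USP13), 13607 (ZHX2) and 14211 (all libraries), scaled by TMM and tested with edgeR 4.0.16 (quasi-likelihood, 1 mean per group, 9 libraries per fit, Benjamini-Hochberg adjustment, threshold 0.05) in R 4.3.3. The sum of the 5 copies was fitted as 1 row in place of its members. The fit was also run on simulated counts with the same spread for all genes. That does not show how it performs at the spread and low counts of these libraries. The members, the lists and the rule for named genes (the NPIP genes, up to 4 genes per list that passed under both hairpins of an experiment in 1 direction, and the 10 most alike) were chosen with earlier results of these data known. Sequences and GENCODE positions come from GENCODE 29 (GRCh38), and gene positions from the RefSeq table (GRCh38.p14). Alternatives were DESeq2 1.42.0, limma 3.58.1 on TPM, other scalings, no filter, effective lengths, other sums, only the groups compared, the replicate block and each library left out.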

Additional observations from a re-analysis of the deposited data

Results flagged for a closer look

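NPIPB5 was flagged because its response differed between the ZHX2 hairpins. Under sh45 it was higher than under sh43, with a log2 difference of 1.29 (SE 0.31; edgeR, adjusted p = 0.000802), in 3 of 3 libraries. This value rests on how the quantification divided reads that NPIPB5 shares with other copies. The sum of the 5 copies was flagged on the same ground, at 0.54 (SE 0.17; edgeR, adjusted p = 0.00641), also in 3 of 3 libraries.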

How the results depend on the processing

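Of 313 tested values of the ZHX2 experiment, recomputed under 20 settings, 305 kept their side of the threshold, 8 did not, and 0 called values reversed. They include values of NPIPB11, whose difference between sh45 and control is a description only. The 315 values of the USP13 experiment had no test, and each moved by less than the SD between replicates. With limma on log2(TPM + 0.5), the rise of the sum under sh45 was 0.38 (adjusted p = 0.0974) and its excess over sh43 was 0.41 (adjusted p = 0.0733), and the cause was not tested. With libraries left out in turn, the sum changed by 0.78 to 0.91 under sh50, 0.81 to 1.02 under sh52, -0.05 to 0.27 under sh43 and 0.49 to 0.72 under sh45, and by 0.35 to 0.67 between sh45 and sh43 (edgeR). The exceptions for NPIPB11 and NPIPB13 stand beside their values in the report.

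The replicate block gave 0.62 for the sum under sh45 (edgeR, adjusted p = 0.00599) and changed no call of the copies or of their sum. Deviations of same-numbered libraries correlated at -0.136 to 0.071 in the USP13 and -0.086 to 0.047 in the ZHX2 experiment, so that the numbers were not taken as pairs. Counts of 3 to 21 for NPIPB3 and NPIPB11 in the ZHX2 experiment limit what can be seen there.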
